A study of Mus musculus with 12 samples.

Results

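The total RNA arm of a Gas5 pulldown was examined across all genes, by setting 3 libraries called sense against 3 called antisense. The cells were mouse primary hippocampal neurons, taken from pups at postnatal day 0 and cultured until day 16 in vitro. Neither a genotype nor a strain, drug or sex is given in the labels, so the groups are known to differ only in the words sense and antisense. The labels do not say which word stands for the capture of Gas5 and which for its control, nor whether the word describes a probe or a bait. They also do not say whether libraries came from separate cultures, so each p-value reflects how much these libraries vary, and that variation may be technical. Membership was by table: all 49489 gene rows in the 6 total RNA libraries, of the 12 libraries in the series. Of these rows 35255 had a count and 20034 had enough counts to be tested, Gas5 among them.

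Gas5 is a long noncoding RNA whose introns carry box C/D snoRNAs, the guides of ribose methylation on ribosomal RNA. The spliced RNA holds only a short, poorly conserved open reading frame and is degraded by nonsense-mediated decay when ribosomes read it. That decay slows when growth stops and mTOR is low, and Gas5 then builds up. A stem near the 3′ end of the human RNA imitates the DNA element bound by the glucocorticoid receptor and can hold that receptor away from its targets. In a pulldown, RNA that stays with the target or sticks to the beads and probes is recovered together, so the reading of each gene is relative to the other group and not an amount of bound RNA.

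Sequences of 6 promoters are printed as single examples for the counts of CG pairs given further on. There, among protein-coding genes that overlapped no other gene, those higher in antisense had a lower median count than those that did not pass. No promoter of a gene that did not pass is printed, and Syn1 overlaps Araf and so lies outside that comparison. Each run covers the last 100 bases before the start of the gene in RefSeq (GRCm38.p6), 5′ to 3′ on the strand of the gene, with every CG in capitals. Ero1a, Fcgr2b, Cbln3 and the neuron marker Syn1 were higher in sense, and Slc18a2 and Gm21885 were higher in antisense.
Ero1a: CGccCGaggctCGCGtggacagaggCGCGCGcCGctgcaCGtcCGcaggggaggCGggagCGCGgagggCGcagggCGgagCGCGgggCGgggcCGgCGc
Syn1: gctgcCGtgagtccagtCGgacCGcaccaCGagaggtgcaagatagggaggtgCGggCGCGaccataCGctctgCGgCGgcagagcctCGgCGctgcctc
Fcgr2b: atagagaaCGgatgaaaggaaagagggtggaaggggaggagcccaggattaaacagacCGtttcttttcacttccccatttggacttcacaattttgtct
Cbln3: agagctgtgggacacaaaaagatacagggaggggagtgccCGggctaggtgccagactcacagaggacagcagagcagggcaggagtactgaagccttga
Slc18a2: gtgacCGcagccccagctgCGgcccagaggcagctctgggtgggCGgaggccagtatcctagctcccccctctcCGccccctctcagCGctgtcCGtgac
Gm21885: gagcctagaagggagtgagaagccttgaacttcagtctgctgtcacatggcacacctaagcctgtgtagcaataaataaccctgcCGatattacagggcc
The runs lie at chr14:45318573-45318672 (minus strand) for Ero1a, chrX:20920919-20921018 (minus) for Syn1, chr1:170976072-170976171 (minus) for Fcgr2b, chr14:55884257-55884356 (minus) for Cbln3, chr19:59260778-59260877 (plus) for Slc18a2 and chr11:94281739-94281838 (plus) for Gm21885. They hold 20, 12, 2, 1, 6 and 1 CG pairs in the order printed. Fcgr2b and Cbln3, higher in sense, held fewer than Slc18a2, higher in antisense, so the runs do not show the contrast gene by gene.

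Gas5 took a large and unequal share of the counts, 9.71%, 14.2% and 10.84% in antisense libraries 1, 2 and 3 and 57.13%, 32.66% and 46.12% in sense libraries 1, 2 and 3. With Gas5 set apart, the antisense libraries held 5248857, 5399527 and 5148971 counts and the sense libraries 4469297, 4362575 and 4092306, so the sense libraries were the shallower ones for every other gene. All 3 sense shares lay above all 3 antisense shares. Scaled to the counts of the other genes, Gas5 was higher in sense by 2.76 on the log2 scale (SE 0.284; edgeR adjusted p = 3.95e-06), and the authors' deposited table gives 2.78. Its span on chromosome 1, 161034601 to 161038539 in GRCm38.p6, is shared with Zbtb37. Of the 10 snoRNAs listed for its introns, 3 had a row, and all 3 were at 0 in every library, so these libraries carried no count of them. Between 29838 and 30664 genes had a count in an antisense library and between 25408 and 26000 in a sense library.

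**Figure D1:**
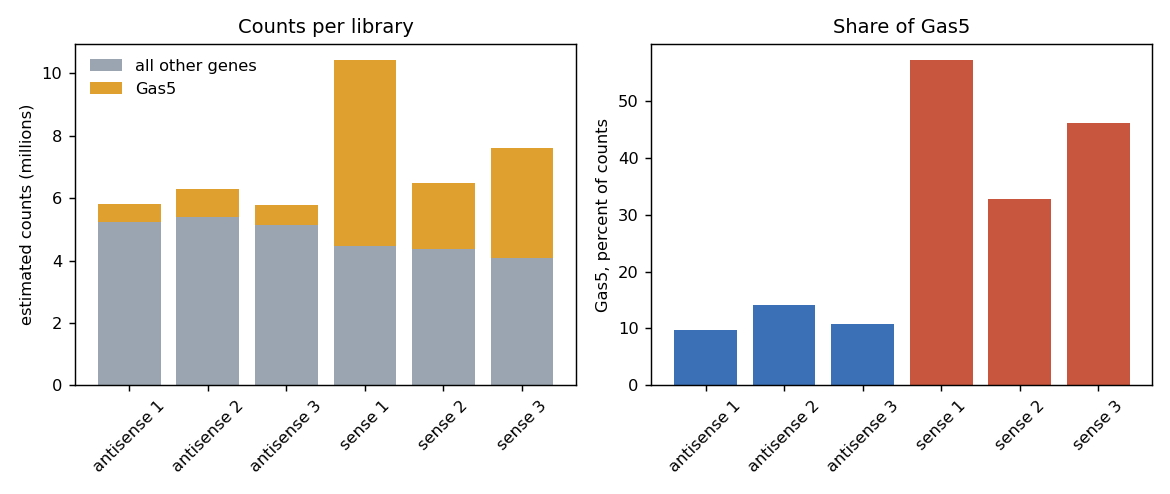
Left, estimated counts per library, on an axis in units of 1000000, with Gas5 stacked on all other genes. Right, the share of Gas5 in percent of each library's counts; the sense libraries hold 57.13%, 32.66% and 46.12%, all above the antisense libraries.

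Outside Gas5, the libraries of a group resembled each other and the groups stood apart. Pearson correlations of log2 CPM over the tested genes were 0.970 to 0.976 within antisense, 0.977 to 0.978 within sense and 0.872 to 0.890 between groups, as a description across genes that share a library. The first principal component, which took 80.5% of the variance, separated the groups. CPM here means counts per 1000000 counts outside Gas5, after TMM scaling, which assumes that most genes do not differ. Of 20034 genes tested, 3536 were higher in antisense (17.6% of tested genes) and 703, Gas5 included, were higher in sense (3.51%), by edgeR's quasi-likelihood test at a false discovery rate of 0.05. At 2-fold or more 2599 genes were called toward antisense (13% of tested genes) and 159 toward sense (0.794%). Changes past 4-fold went almost wholly one way, with 1642 genes higher in antisense and 30 higher in sense, and past 16-fold the counts were 1043 and 7. The groups did not overlap, with antisense above, for 23.3% of tested genes and, with sense above, for 11.6%. The number higher in sense depended on single libraries: it dropped to 466 when antisense replicate 1 was left out, to 461 for sense replicate 1 and to 390 for sense replicate 3, and reached 1022 for sense replicate 2. Of the 703 genes, 244 kept their call whichever library was left out, and of the 3536 genes 2729 did.

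The scaling sets the middle of the distribution near 0. The median log2 fold change, sense minus antisense, was -0.002, and the middle 50% of genes lay between -0.38 and 0.18. Library totals that include Gas5 shift the median to -0.69, and 12581 genes were then higher in antisense and 63 in sense, while 83.4% of calls here were higher in antisense, so every direction given here is relative to the other genes. Antisense calls were most frequent among genes with few counts. Of genes with a mean of 1 to 3 CPM 41.1% were higher in antisense, falling to 8.57% at 100 to 300 CPM and standing at 10.3% above 300 CPM. Calls toward sense went the other way, from 1.26% to 6.99% over the same ranges, and 14.2% of the 359 genes above 300 CPM were higher in sense. Many genes in the lowest range pass the filter on low counts only through the group where they are high. Of the tested genes 544 were at 0 in sense and counted in all antisense libraries, and 2 the reverse. The share at 1 to 3 CPM is thus partly set by the filter and serves as a description.

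**Figure D2:**
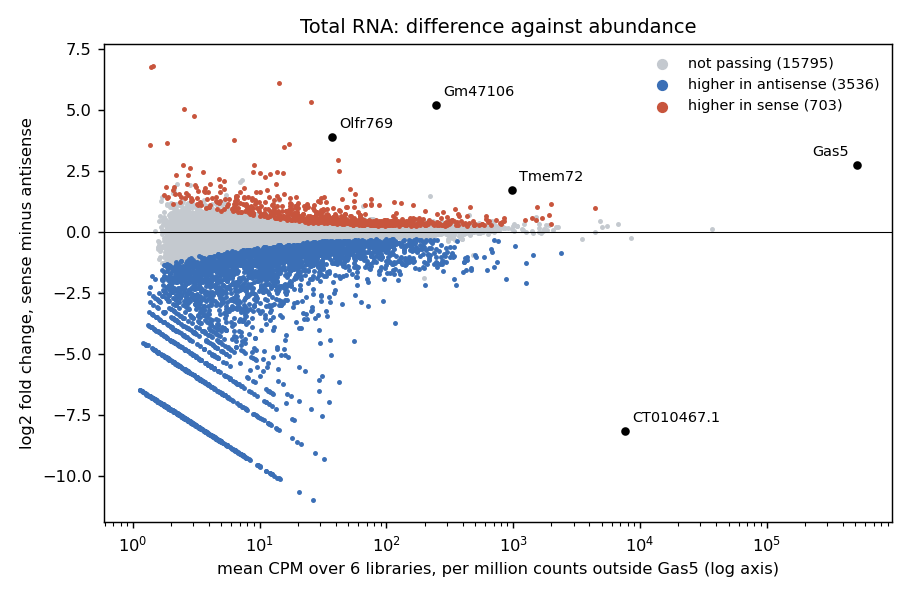
Log2 fold change, sense minus antisense, against the mean CPM over 6 libraries on a log axis, 1 point per tested gene, with 3536 genes higher in antisense in blue and 703 higher in sense in red. The lower left holds parallel lines of genes with 0, 1 or a few counts in sense, whose fitted fold depends on the fit's prior count and is no bound; Gas5, CT010467.1, Gm47106, Tmem72 and Olfr769 are named.

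Many of the genes higher in antisense were not counted in sense at all. In all, 2306 genes had a count in all 3 antisense libraries and in no sense library, and 45 had the reverse pattern. The 2306 comprised 843 long noncoding RNA genes, 804 processed pseudogenes and 387 protein-coding genes. Their antisense mean was at most 52.7 CPM with a median of 1.21 CPM, and 544 of them passed the filter on low counts. A gene at 0 in sense that passed the filter did so through its antisense counts, so those 544 had to differ and serve here as a description.

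Long noncoding RNA genes and processed pseudogenes had larger shares of antisense calls than coding genes. The shares were 5.56% of 72 snoRNA, 8% of 25 miRNA and 10.5% of 38 snRNA genes, near the coding share. Among 3491 long noncoding RNA genes 1534 were higher in antisense (43.9%) and 109 in sense, and among 943 processed pseudogenes, which are retrotransposed copies of mRNAs, 431 (45.7%) and 24. Among 15080 protein-coding genes 1454 were higher in antisense (9.64%) and 549 in sense (3.64%). As shares of the counts outside Gas5, processed pseudogenes held 3.73%, 3.79% and 3.91% of the antisense libraries and 1.70%, 2.07% and 1.84% of the sense libraries. Protein-coding genes held 77.4% ± 0.938 in antisense and 82.0% ± 0.88 in sense (SD, n = 3 each). These shares did not overlap between groups in either class. Long noncoding RNAs, whose calls went mostly to antisense, held 13.9% ± 0.153 and 12.4% ± 0.967 of the counts (SD, n = 3 each), also without overlap.

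Position next to another gene went with the calls. A gene was classed by whether its span in RefSeq overlapped another gene with a mean of at least 10 CPM in the sense libraries. Of 718 long noncoding RNA genes that overlapped such a gene 65.3% were higher in antisense, against 22.5% of 413 that overlapped only lower genes and 30.2% of 698 that overlapped none. Processed pseudogenes gave 54.4% of 349, 30% of 40 and 16.1% of 205. For coding genes the shares were 20.9% of 2159, 6.75% of 4772 and 7.99% of 7964. The position table carried no strand and the strand of counting is not given in the sources used here, so reads of a host gene and of a gene inside it cannot be told apart. The 1045 tested partners of the genes higher in antisense had a median log2 fold change of 0.10 (quartiles -0.01 and 0.20). Of these partners 57 were higher in sense, 50 in antisense and 938 in neither, while 21.2% of all tested genes passed. A partner was the overlapping gene with the highest mean in sense, so genes low in sense could not enter. Partners of genes not passing, picked alike, had a median of 0.03. These values are a description.

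**Figure D3:**
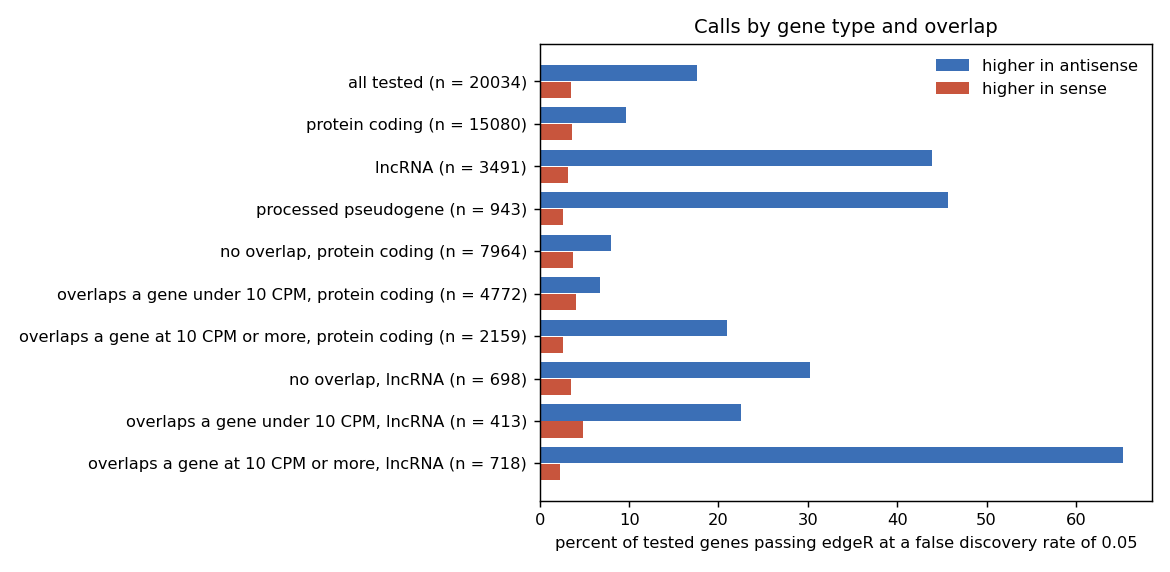
Percent of tested genes higher in antisense (blue) and higher in sense (red) by gene type and by overlap with another gene; the number of tested genes stands in brackets. Long noncoding RNA genes overlapping a gene at 10 CPM or more reach 65.3% higher in antisense, against 7.99% for coding genes without overlap.

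Genes named for lying opposite a coding gene, with names ending in os, showed the pattern gene by gene. Of 154 tested, 90 were higher in antisense (58.4%, against 17.6% of all tested genes), 5 in sense and 59 in neither, and their median log2 fold change was -1.25. The antisense share was 43.9% over all long noncoding RNA genes and 65.3% over those overlapping a gene at 10 CPM or more. Sorbs2os, opposite the actin-linker gene Sorbs2, stood at 106, 101 and 111 CPM in antisense libraries 1 to 3 and at 4.28, 4.70 and 5.66 CPM in sense libraries 1 to 3. Dnm3os, opposite the dynamin gene Dnm3 and host of miRNAs, stood at 62.5, 84.1 and 58.9 CPM against 2.03, 3.36 and 4.18. For both genes each antisense library was above each sense library by more than 10-fold, with log2 fold changes of -4.44 (SE 0.142; edgeR adjusted p = 9.57e-11) and -4.43 (SE 0.224; 5.95e-09). Egfros, opposite the growth factor receptor gene Egfr, changed by -4.42 (SE 0.236; 1.02e-08), and Grin1os, opposite the NMDA receptor subunit gene Grin1, had 157 antisense counts and 1 sense count, a ratio of 129 (95% exact interval 22.9 to 5144). Grin1 itself had 108, 98.3 and 81.6 CPM in antisense and 129, 98.1 and 126 CPM in sense and did not pass (0.29, SE 0.125; adjusted p = 0.129). Plxna4os2, named for the plexin gene Plxna4, had no count in sense and was at least 109-fold higher in antisense, and Plxna4os1 changed by -3.64 (SE 0.562; 0.000147). Here and below, a gene at 0 in a whole group is set against a floor of 3 counts over that group.

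RIKEN-named and Gm-numbered genes, mostly uncharacterised transcripts, followed the same direction. Of 1090 RIKEN-named genes 371 were higher in antisense (34%) and 31 in sense (2.84%), and of 3806 Gm-numbered genes 1658 (43.6%) and 108 (2.84%). Over all tested genes the shares were 17.6% and 3.51%. Neither antisense share exceeded that of all long noncoding RNA genes (43.9%) or all processed pseudogenes (45.7%). Gm9968, within the transcription factor gene Zbtb20, had 68.5, 71.1 and 73.1 CPM in antisense and 2.03, 1.57 and 2.95 CPM in sense (-5.02, SE 0.182; edgeR adjusted p = 2.77e-10). The antisense libraries lay within a narrow band and the sense libraries near 0. Gm45025, with no position in the table, had 1009 antisense counts and 1 sense count, a ratio of 832 (95% exact interval 149 to 32883).

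Pseudogenes led the genes with many counts that were higher in antisense. CT010467.1, typed as a pseudogene in the authors' deposited table, had the most counts of them. CT010467.1 stood at 13630, 7612 and 24627 CPM in antisense libraries 1 to 3 and at 27.7, 87.6 and 47.5 CPM in sense libraries 1 to 3. The antisense libraries differed among themselves by over 3-fold, and all lay far above the sense libraries (-8.14, SE 0.481; edgeR adjusted p = 2.28e-08). Gm48493 stood at 1975, 2135 and 2029 CPM in antisense and at 371, 683 and 387 CPM in sense (-2.09, SE 0.182; 8.69e-07). Gm48415 stood at 1304, 1456 and 1420 CPM against 298, 426 and 383 (-1.92, SE 0.122; 4.26e-08). The other 7 by the same rule, Gm48128, Gm17132, Gm48111, Gm47626, Gm48416, Gm48082 and Gm48368, had log2 fold changes of -1.0 to -1.55, and their groups did not overlap. Of those 9 Gm-numbered genes Gm17132 is typed as an unprocessed pseudogene and the rest as processed pseudogenes. A pseudogene resembles its parent and often its sister copies, so the split of reads among them is uncertain.

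A smaller group of genes with many counts was higher in sense. Gm47578, a long noncoding RNA gene, held 2931, 2936 and 2928 CPM in antisense and 5591, 6127 and 5904 CPM in sense (1.0, SE 0.0888; edgeR adjusted p = 1.01e-06). Gm48765 held 1272, 1241 and 1186 CPM against 2598, 3003 and 2699 (1.17, SE 0.0932; 3.83e-07). Gm47106 held 15.7, 10.9 and 12.1 CPM against 448, 485 and 502, the smallest adjusted p of all genes (5.21, SE 0.134; 1.54e-11). In each of the 3 genes the libraries of a group lay close together and the groups did not overlap. Gm17106 changed by 1.23 (SE 0.147). Scarna2, which guides modification of spliceosomal RNA in Cajal bodies, varied more, at 1215, 1083 and 723 CPM against 2021, 1341 and 2791 (1.03, SE 0.218; 0.00251). It was the highest of the small RNAs of its kind, and the type scaRNA as a whole held 0.19% ± 0.0313 of the antisense counts and 0.34% ± 0.103 of the sense counts (SD, n = 3 each).

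Among protein-coding genes that overlapped no other gene with a position in the table, 298 of 7964 were higher in sense (3.74%) and 636 in antisense (7.99%). Tmem72, which encodes a membrane protein, lies on chromosome 6 from 116691539 to 116716982. It held 448, 426 and 477 CPM in antisense and 1391, 1605 and 1494 CPM in sense, a 3.32-fold difference (1.73, SE 0.0955; edgeR adjusted p = 1.28e-08). Ero1a, the oxidase that drives disulfide bond formation in the endoplasmic reticulum, held 58.9, 58.4 and 50.6 CPM against 109, 127 and 123 (1.10, SE 0.103; 1.79e-06). Atp6v0e2, a subunit of the proton pump of vesicles and lysosomes, held 50.5, 44.5 and 47.9 CPM against 107, 115 and 91.3 (1.13, SE 0.109; 2.24e-06). In these 3 genes every sense library was above every antisense library. Hddc3, an HD-domain hydrolase gene, changed by 1.14 (SE 0.122; 5.48e-06), and Glipr1, which overlaps Krr1, by 1.19 (SE 0.114; 2.15e-06).

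Of the 8 coding genes without overlap that had the largest shifts toward sense, 4 were chemosensory receptor genes and 1 was Tmem72, given above. Cbln3, a secreted partner of the synaptic organiser cerebellin, held 7.29, 2.06 and 5.0 CPM in antisense and 24.8, 29.1 and 22.9 CPM in sense (2.42, SE 0.285; edgeR adjusted p = 1.35e-05). Fcgr2b, the inhibitory IgG receptor of immune cells, held 1.73, 2.81 and 2.31 CPM against 15.1, 21.3 and 10.8 (2.77, SE 0.313; 9.17e-06). Acer1, an alkaline ceramidase, held 4.61, 4.50 and 6.74 CPM against 14.6, 18.1 and 20.4 (1.74, SE 0.232; 4e-05). No sense library of the 3 genes reached down to an antisense library. The receptor genes were the odorant receptor genes Olfr769 (3.89, SE 0.208) and Olfr432 (1.82, SE 0.296) and the vomeronasal receptor genes Vmn1r47 (2.49, SE 0.147) and Vmn2r82 (1.77, SE 0.355).

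Coding genes with the largest shifts toward antisense had 0, 1 or 2 counts in sense, and several are best known from other tissues. Muc5b, a gel-forming mucin of the airways, held 16.7, 11.1 and 17.3 CPM in antisense and none in sense, at least 65.0-fold higher. Slc18a2, the vesicular transporter of dopamine and other monoamines, held 11.7, 19.1 and 12.5 CPM and none in sense, at least 62.5-fold higher. Apob, the apolipoprotein of low-density lipoprotein, held 9.79, 10.7 and 11.7 CPM and none in sense, at least 46.4-fold higher. Genes at or near 0 in sense passed the filter through their antisense counts, so their values are a description. Tmprss2, a cell-surface serine protease, had 432 antisense counts and 1 sense count, giving a depth-scaled ratio of 356 (95% exact interval 63.6 to 14097, counting error only). The rule also gave the methyltransferase gene Mettl21c, the orphan receptor gene Gpr151, Gm21885 and 1700022I11Rik, with 1, 1, 2 and 2 counts in sense and ratios of 197 (35.0 to 7814), 143 (25.3 to 5665), 92.7 (25.4 to 770) and 85.7 (23.4 to 713).

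**Figure D4:**
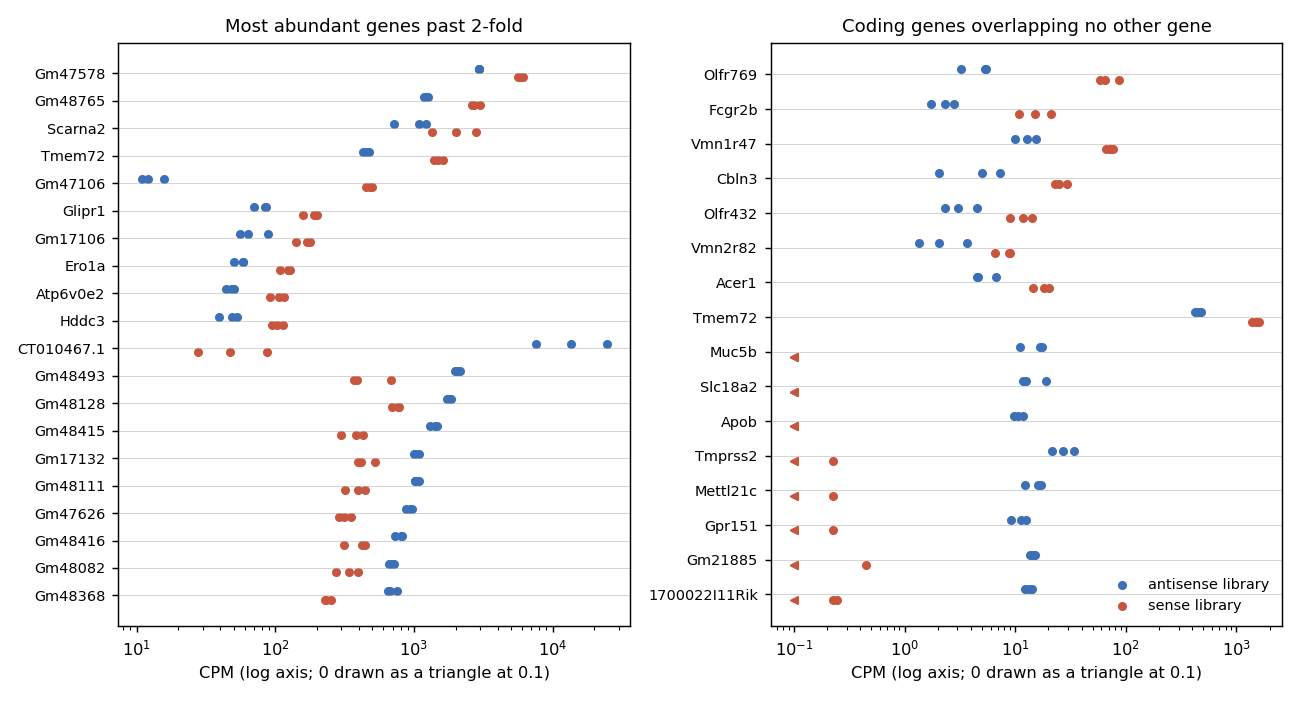
CPM in each library on a log axis for the genes with most counts past 2-fold (left) and for coding genes overlapping no other gene (right), antisense in blue and sense in red; a triangle at 0.1 marks 0 counts. The groups of each gene do not overlap: CT010467.1 lies at 7612 to 24627 CPM in antisense and at 27.7 to 87.6 CPM in sense.

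The cell type on the labels was set beside marker genes. Neuron markers were counted in both groups, and so were astrocyte markers, given further on. All 14 neuron markers were tested. Their summed level was 1664, 1783 and 1363 CPM in antisense and 2137, 1708 and 1886 CPM in sense. Of the markers 1 passed, toward sense (7.14%, against 3.51% of all tested genes), and 13 did not. The median log2 fold change of the markers was 0.29, against -0.002 over all genes. Coding genes without overlap had a median of 0.06, with 0.13 at 100 to 300 CPM and 0.18 above 300 CPM. Syn1, the synapsin that tethers synaptic vesicles, lies over Araf and was the marker that passed, at 34.5, 25 and 21 CPM against 52.5, 33.8 and 41.3 (0.66, SE 0.187; edgeR adjusted p = 0.018). Sense library 2 was below antisense library 1 here, and the call was lost without antisense replicates 2 or 3 or sense replicates 1 or 3 (adjusted p up to 0.0996). Of 12 excitatory neuron markers only Camk2a, the kinase of synaptic plasticity, passed, at 295, 294 and 235 CPM against 460, 328 and 363 (0.48, SE 0.128; 0.0119), and it was lost without sense replicate 1 (0.0641). In bulk RNA fewer cells of a type and less RNA per cell cannot be told apart.

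Genes of the presynaptic release machinery leaned toward sense by small amounts. Of 26 tested, 8 were higher in sense (30.8%), none in antisense and 18 in neither, and their median was 0.27. Over all tested genes the shares were 3.51% in sense and 17.6% in antisense, and over those at 100 to 300 CPM 6.99% and 8.57%. The 26 genes summed to 3759 to 5031 CPM per library, and the list was chosen with earlier results of these data known. Bsn encodes Bassoon, a scaffold of the active zone, and held 208, 202 and 154 CPM in antisense and 404, 220 and 309 CPM in sense (0.73, SE 0.174; edgeR adjusted p = 0.00622). Its sense libraries all lay above its antisense libraries, but sense library 2 only by little. Ppfia3, a liprin that anchors vesicles, changed by 0.52 (SE 0.134; 0.0107) and was lost without sense replicates 1 or 3 (up to 0.0527). The list's calls also included Syn1, given above, and, chosen after their values were seen, Pclo (0.44), Sv2a (0.57), Cplx2 (0.39) and Nrxn2 (0.35).

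Large cytoskeletal and motor genes had the highest share of sense calls among the lists of more than 10 tested genes. Of 26, 11 were higher in sense (42.3%, against 3.51% of all tested genes), none in antisense (against 17.6%), and the median was 0.31. The shares over all genes are not matched for abundance, and these 26 genes summed to 17337 to 26783 CPM per library. Among coding genes without overlap 7.6% were higher in sense and 3.58% in antisense at 100 to 300 CPM. Above 300 CPM the shares were 18.2% and 3.64%. This list was also chosen with earlier results of these data known. Map1a, which binds and stabilises microtubules, held 317, 289 and 260 CPM in antisense and 572, 372 and 427 CPM in sense (0.66, SE 0.137; edgeR adjusted p = 0.002). Map1b, its growth-stage relative, held 712, 789 and 526 CPM against 1248, 821 and 977 (0.59, SE 0.156; 0.0124), and Kif5a, a motor of axonal transport, 148, 143 and 97.4 CPM against 228, 153 and 199 (0.58, SE 0.158; 0.0144). The sense libraries stood above the antisense libraries in all 3. Map1b was lost without sense replicate 1 (0.0625), and Kif5a without antisense replicate 3 or sense replicates 1 or 3 (up to 0.0689). The motor gene Kif1a changed by 0.45 (SE 0.123; 0.0158) and was lost without antisense replicates 2 or 3 or sense replicates 1 or 3 (up to 0.0746).

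Many members of these lists, and of some others, shared the same order of the sense libraries. Gas5 took its largest share in sense library 1 and its smallest in sense library 2, and 21 of the 26 cytoskeletal genes (80.8%), 18 of the 26 presynaptic genes (69.2%) and 11 of the 14 neuron markers (78.6%) had CPM in the same order, library 1, then 3, then 2. Over all tested genes the share was 18.0%, and over genes higher in sense 31.9%. The part of this order in the results was not tested. With library totals that include Gas5 the medians of the neuron, presynaptic and cytoskeletal lists were -0.41, -0.44 and -0.40, against -0.69 over all genes. There the direction of the sense-higher members named from these lists turned, as for Bsn (-0.02), Map1a (-0.07), Map1b (-0.14), Kif5a (-0.14) and Syn1 (-0.07).

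Postsynaptic genes were split. Of 25 tested, 4 were higher in sense (16%) and 2 in antisense (8%), against 3.51% and 17.6% of all tested genes, with a median of 0.19. Lrrtm1 and Lrrtm2, synapse-inducing adhesion genes that each lie inside a catenin gene (Ctnna2 and Ctnna1), went toward antisense. Lrrtm1 held 41.6, 48.0 and 44.3 CPM in antisense and 18.2, 13 and 14 CPM in sense (-1.56, SE 0.148; edgeR adjusted p = 1.91e-06). Lrrtm2 held 65.2, 66.8 and 62.1 CPM against 31.5, 22.8 and 27.1 (-1.25, SE 0.125; 3.1e-06). The groups of both genes did not overlap. Dlgap3, a scaffold beneath glutamate receptors, held 33.4, 28.7 and 27.5 CPM against 47.7, 39.0 and 49.9 (0.61, SE 0.132; 0.00298). The other sense-higher members were Camk2a, given above, and, chosen after their values were seen, Agap2 (0.52) and Nlgn3 (0.32).

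**Figure D5:**
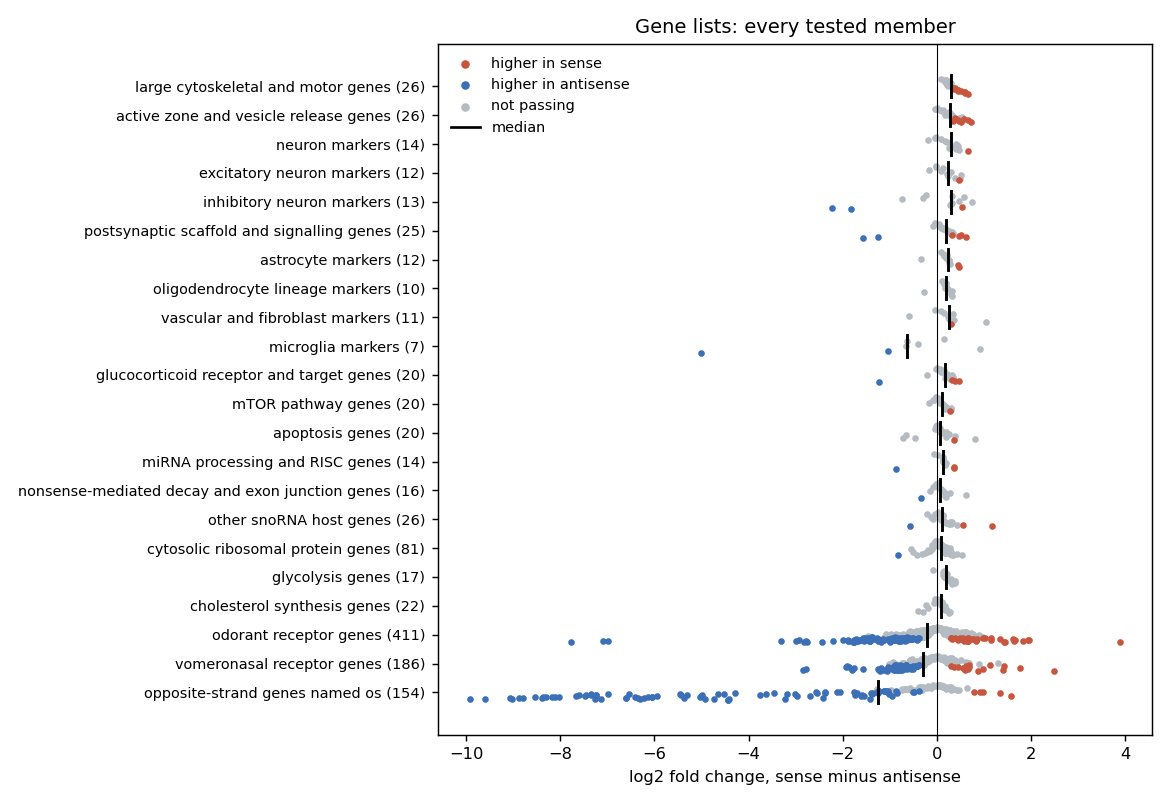
Log2 fold change, sense minus antisense, of every tested member of 22 gene lists, with the number tested in brackets; red is higher in sense, blue higher in antisense, grey not passing and the black bar the median. Cytoskeletal, presynaptic and neuron lists centre at 0.31, 0.27 and 0.29, and genes named os at -1.25; values beyond about -6 come from genes with almost no count in sense and are no bounds.

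Of 13 inhibitory neuron markers 2 were higher in antisense (15.4%, against 17.6% of all tested genes) and 1 in sense (7.69%, against 3.51%). Dlx1 and Dlx6, homeobox genes of interneuron development that share their loci with antisense transcripts, held 15.7, 13.3 and 12.3 CPM against 2.25, 3.58 and 2.95, and 21.9, 18.0 and 17.7 CPM against 5.85, 4.48 and 5.90. Their log2 fold changes were -2.23 (SE 0.26; edgeR adjusted p = 1.24e-05) and -1.82 (SE 0.21; 1.11e-05), with no overlap of groups. Reln, the secreted guidance protein reelin, changed by 0.54 (SE 0.177; 0.0425) and was lost without antisense replicates 2 or 3 or sense replicates 1 or 3 (up to 0.201). The remaining 10 tested markers of the list did not pass.

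Markers of other cells of the brain were counted too. The 12 astrocyte markers summed to 2336 to 2859 CPM in antisense and 2737 to 3448 CPM in sense, above the sum of the 14 neuron markers in every library. Sums over different genes give no share of cells. Of them 2 were higher in sense (16.7%, against 3.51% of all tested genes) and none in antisense (against 17.6%). The 2 were Atp1b2 (0.47, SE 0.118; edgeR adjusted p = 0.00904) and Aldh1l1 (0.44, SE 0.128; 0.022). Atp1b2, the sodium pump subunit of glia, was lost without sense replicate 1 (0.0512), and Aldh1l1, the folate enzyme used as an astrocyte marker, without antisense replicates 1 or 3 or sense replicates 1 or 3 (up to 0.119). The 11 oligodendrocyte lineage markers summed to 655 to 730 CPM and 700 to 912 CPM, and none of the 10 tested passed. Of 11 vascular and fibroblast markers tested, Fn1, the matrix protein fibronectin, was higher in sense (0.31, SE 0.105; 0.0482), but lost its call without any library other than sense replicate 2 (up to 0.2). None of 6 choroid plexus and ependymal markers passed. The median log2 fold changes of the astrocyte, oligodendrocyte, vascular and choroid plexus lists were 0.23, 0.19, 0.26 and 0.19, against 0.29 for neuron markers.

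Microglia markers were low in both groups. Of 12 listed 7 were tested, none was at 0 in all libraries, and their sum was 55.6 to 58.7 CPM in antisense and 45.2 to 45.7 CPM in sense. Among the 7, 2 were higher in antisense (28.6%, against 17.6% of all tested genes) and none in sense. Trem2, a lipid receptor of microglia, held 7.87, 11.3 and 9.43 CPM against 4.05, 5.82 and 3.94 (-1.04, SE 0.267; edgeR adjusted p = 0.0102) and was lost without antisense replicate 2 (0.0614). P2ry12, the purinergic receptor of resting microglia, lies within Med12l and held 6.33, 5.25 and 5.77 CPM against 0, 0 and 0.492, or 91 and 2 counts, a ratio of 37.5 (95% exact interval 10.1 to 314). Itgam, the integrin of myeloid cells, held 2.69, 4.50 and 4.81 CPM against 5.18, 7.84 and 9.84 and did not pass (0.92, SE 0.323; edgeR adjusted p = 0.0582), though its sense libraries lay above its antisense libraries. Of 10 blood cell markers listed, Hba-a2, Hbb-bt, S100a8 and S100a9 were at 0 in all libraries and 2 were tested, Ptprc and Alas2. Ptprc held 8.25, 12.95 and 8.85 CPM against 11.48, 7.84 and 7.38 and did not pass (-0.17, SE 0.254; edgeR adjusted p = 0.716). Alas2, the haem enzyme of red cells, was counted only in antisense, at 22.1, 22.1 and 23.7 CPM, at least 97.8-fold higher, and it overlaps the DNA repair gene Apex2.

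Genes of the pathways Gas5 is known for mostly did not pass. Of 26 other snoRNA host genes tested, Snhg3 (1.17, SE 0.285; edgeR adjusted p = 0.00699) and Snhg20 (0.55, SE 0.152; 0.0167) were higher in sense and Snhg15 in antisense. These are 7.69% and 3.85% of the list, against 3.51% and 17.6% of all tested genes. Snhg15 held 50.1, 49.0 and 52.0 CPM in antisense and 33.3, 34.9 and 32.7 CPM in sense (-0.58, SE 0.108; 0.000806), with tight groups that did not overlap. Snhg3 overlaps Snora73b, one of its snoRNAs, and stood at 3.84 to 6.75 CPM against 8.29 to 12.8. Snhg20 was lost without antisense replicate 1 or sense replicate 1 (up to 0.0825). Of 16 genes of nonsense-mediated decay and the exon junction complex only Upf2, a core factor, passed, toward antisense (-0.33, SE 0.106; 0.0398), and it was lost without any library other than antisense replicate 3 (up to 0.161). Of 24 RNA decay genes the decapping gene Dcp2 was higher in sense (0.28, SE 0.0923; 0.0435) and its enhancer Edc3 in antisense (-0.53, SE 0.156; 0.0236). Dcp2 lost its call without any library other than antisense replicate 2 (up to 0.141), and Edc3 without antisense replicates 1 or 3 or sense replicates 2 or 3 (up to 0.134).

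Glucocorticoid, mTOR and apoptosis lists held 20 tested genes each. Of those of the glucocorticoid receptor and its targets 3 were higher in sense (15%, against 3.51% of all tested genes) and 1 in antisense (against 17.6%), with a median of 0.17. The metallothionein genes Mt1, at 86.0, 84.2 and 70.2 CPM against 113, 90.7 and 112, and Mt2, at 53.0, 49.7 and 49.3 CPM against 84.9, 53.5 and 71.8, changed by 0.39 (SE 0.113; edgeR adjusted p = 0.0218) and 0.47 (SE 0.141; 0.0272). Both lost their call without antisense replicate 3 or sense replicates 1 or 3, and Mt2 also without antisense replicates 1 or 2 (up to 0.117 and 0.141). Sult1a1, a sulfotransferase overlapping Slx1b, changed by -1.23 (SE 0.355; 0.0216) and was lost without antisense replicates 1 or 2 or sense replicates 1 or 2 (up to 0.1). Of 20 mTOR pathway genes only the kinase gene Mtor passed (0.28, SE 0.0964; 0.0491), and it was lost without any library but sense replicate 2 (up to 0.195). Of 20 apoptosis genes only Apaf1, the apoptosome scaffold, passed (0.36, SE 0.1; 0.017), and it was lost without antisense replicate 2 (0.0552).

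Of 14 genes that process miRNAs 2 were higher in sense (14.3%, against 3.51% of all tested genes) and 1 in antisense (7.14%, against 17.6%). Drosha, the nuclease that cuts primary miRNA transcripts, held 113, 110 and 99.9 CPM in antisense and 148, 129 and 139 CPM in sense (0.36, SE 0.0947; edgeR adjusted p = 0.0113). Xpo5, which exports the hairpins, held 85.2, 78.1 and 75 CPM against 110, 84.9 and 110 (0.36, SE 0.113; 0.0344). Tarbp2, the partner of Dicer, overlaps Map3k12 and held 34.3, 22.5 and 29.1 CPM against 16.7, 14.1 and 16.5 (-0.86, SE 0.175; 0.00171). Drosha was lost without sense replicates 1 or 3 (up to 0.0509) and Xpo5 without antisense replicates 2 or 3 or sense replicates 1 or 3 (up to 0.167). Of 30 rows named for miRNAs or their hosts and tested, 3 were higher in antisense (10%, below the 17.6% of all tested genes) and none in sense. Mir3473f lies within the survival gene Bcl2, with its hairpin at chr1:106546496-106546631, and held 25.9, 29.1 and 40.6 CPM against 11.9, 15.9 and 16.0 (-1.13, SE 0.191; 0.000355). Its mature sequence from RefSeq (GRCm38.p6) is printed because it was the only miRNA gene among the 3 that is not a host, with the seed, bases 2 to 8, in capitals.
mmu-miR-3473f: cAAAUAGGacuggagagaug
The library holds long RNA, so the row counts reads over the hairpin region and not the mature miRNA. The other rows were the host genes Mir133a-1hg, at least 23.6-fold higher in antisense, and Mir670hg (-0.75, SE 0.192; 0.00997), which was lost without antisense replicate 2 or sense replicate 3 (up to 0.0544).

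Of 17 long noncoding RNAs known from the nucleus 14 did not pass, while Tsix and Airn were higher in antisense and Tug1 in sense. These are 11.8% and 5.88% of the list, against 17.6% and 3.51% of all tested genes. Tsix, the antisense partner of Xist in X inactivation, held 19.2, 16.9 and 24.6 CPM in antisense and 3.60, 4.03 and 5.66 CPM in sense (-2.19, SE 0.24; edgeR adjusted p = 7.03e-06). Xist, chosen after its values were seen, held 7133 to 9625 CPM over the 6 libraries and did not pass (-0.24, SE 0.105; 0.139). Airn, the imprinting RNA that overlaps Igf2r, changed by -0.52 (SE 0.148; 0.0183) and was lost without antisense replicates 2 or 3 or sense replicates 1 or 3 (up to 0.0903). Tug1 held 186, 186 and 170 CPM against 235, 232 and 221 (0.34, SE 0.0877; 0.00974). Malat1, the nuclear speckle RNA, also chosen after its values were seen, held 37147, 38421 and 30867 CPM against 35285, 38481 and 41782 and did not pass (0.12, SE 0.11).

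Chemosensory receptors, best known from the nose, were called in both directions. Of 411 odorant receptor genes tested 95 were higher in antisense (23.1%) and 35 in sense (8.52%), and of 186 vomeronasal receptor genes 60 (32.3%) and 17 (9.14%), against 17.6% and 3.51% of all tested genes. Olfr1459 held 157, 167 and 168 CPM in antisense and 20.7, 25.8 and 23.4 CPM in sense (-2.82, SE 0.109; edgeR adjusted p = 5.02e-10). Olfr769 went the other way, from 3.26, 5.44 and 5.39 CPM to 58.5, 87.3 and 64.2 CPM (3.89, SE 0.208; 1.02e-08). Vmn1r47 likewise rose from 12.7, 15.6 and 10 CPM to 66.6, 72.6 and 76.7 CPM (2.49, SE 0.147; 2.2e-08). Each of these receptors separated the groups without overlap. Vmn1r55 held 553, 575 and 554 CPM against 242, 315 and 247 (-1.06, SE 0.107; 3.32e-06), and Olfr667 changed by -1.77 (SE 0.147; 5.75e-07). These families hold many similar copies, and how reads shared among copies were split is uncertain.

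Channel and transporter genes were called in both directions. Of 288 solute carrier genes 33 were higher in antisense (11.5%, against 17.6% of all tested genes) and 8 in sense (2.78%, against 3.51% of all tested genes). Slc6a20b, an amino acid transporter that overlaps no other gene, held 65.8, 62.5 and 69.8 CPM in antisense and 9.91, 12.5 and 13.0 CPM in sense (-2.48, SE 0.135; edgeR adjusted p = 1.21e-08). Slc44a3 held 27.1, 20.4 and 24.4 CPM against 1.35, 1.34 and 1.72 (-4.01, SE 0.258; 4.72e-08), and Slc16a4, which overlaps Rbm15, changed by -3.22 (SE 0.225; 1.15e-07). The antisense and sense libraries of each of these carriers did not overlap. Of 66 potassium channel genes 5 were higher in antisense (7.58%) and 2 in sense (3.03%). Kcnj13 lies inside Gigyf2 and changed by -3.21 (SE 0.331; 3.93e-06), while Kcnab1, a channel subunit, held 46.2, 44.3 and 44.3 CPM against 22.3, 21.7 and 22.1 (-1.03, SE 0.117; 1.01e-05). Of 36 sodium, calcium and HCN channel genes Cacna1f, the calcium channel of the retina, and Cacna2d4 were higher in antisense (-2.93, SE 0.507; -1.25, SE 0.208) and Scn8a, the sodium channel of the axon initial segment, in sense (0.35, SE 0.104; 0.0243). That is 5.56% of this channel list toward antisense and 2.78% toward sense. Scn8a was lost without antisense replicates 1 or 3 or sense replicates 1 or 3 (up to 0.117).

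Receptors for glutamate and GABA gave no call for a receptor subunit. Of 26 names in the glutamate receptor family the 1 that passed was Grin1os, which is no receptor, and none of 13 GABA-A receptor genes passed. Clustered protocadherins, cell-surface identity proteins of neurons, had 5 of 56 members higher in sense (8.93%, against 3.51% of all tested genes) and none in antisense (against 17.6%). Pcdhga10 held 3.26, 0 and 0.385 CPM in antisense and 52.5, 45.5 and 50.2 CPM in sense (5.32, SE 0.404; edgeR adjusted p = 2.41e-07). Pcdhgc3 held 103, 86.9 and 90.0 CPM against 165, 123 and 135 (0.60, SE 0.115; 0.00116), and Pcdha11 changed by 0.55 (SE 0.114; 0.00211). Members of a cluster share their last exons, so counts of single members are uncertain. Of 17 other cadherin genes 3 were higher in antisense (17.6%, the same share as over all tested genes) and none in sense. Among the 3 was the stereocilia gene Cdh23 (-1.68, SE 0.325; 0.00112).

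Housekeeping lists gave few calls, though some medians lay near the 0.27 of the presynaptic list and the 0.29 of the neuron markers. None of 22 cholesterol synthesis genes, 17 glycolysis genes, 24 chaperone genes, 23 chromatin repressor and DNA methylation genes or 19 tubulin-named genes passed, with medians of 0.09, 0.20, 0.14, 0.08 and 0.23. The glycolytic enzyme gene Aldoa did not pass (0.32, SE 0.126; edgeR adjusted p = 0.0916), and glycolysis genes had the library order 1, 3, 2 in 13 of 17 cases. Of 81 cytosolic ribosomal protein genes Rpl29 alone passed, at 16.7, 18.4 and 15.6 CPM in antisense and 11, 9.41 and 8.12 CPM in sense (-0.82, SE 0.19; 0.00485). Of 40 ribosomal protein pseudogenes 7 were higher in antisense (17.5%, near the 17.6% of all tested genes and below the 45.7% of processed pseudogenes) and 1 in sense. Rpl15-ps2, inside the transcription factor gene Tcf12, had no count in sense and was at least 24.2-fold higher. Of 81 nuclear oxidative phosphorylation names 2 passed each way, and Ndufb2, a complex I subunit, held 66.4, 53.1 and 63.9 CPM against 33.1, 43.9 and 29.8 (-0.78, SE 0.144; 0.000785). Of 20 interferon-stimulated genes only Eif2ak2, the double-stranded RNA sensor PKR, passed, at 213, 221 and 214 CPM against 146, 159 and 146 (-0.52, SE 0.0873; 0.000312), and it overlaps Gm6548.

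Of 11 mitochondrial mRNAs tested 2 were higher in antisense (18.2%, against 17.6% of all tested genes) and 1 in sense (9.09%, against 3.51%). The mitochondrial genome is transcribed from both strands, and mt-Nd6 is the only mRNA encoded on its own strand. The mt-Nd6 row held 14.2, 17.4 and 13.5 CPM in antisense and 8.11, 4.70 and 6.64 CPM in sense (-1.21, SE 0.234; edgeR adjusted p = 0.00111). mt-Nd4l held 3.45, 0 and 4.62 CPM against 17.6, 10.5 and 16.7 (2.47, SE 0.504; 0.00181), and mt-Nd5 changed by -0.44 (SE 0.141; 0.0359). The call of mt-Nd5 was lost without antisense replicates 1 or 2 or sense replicates 2 or 3 (up to 0.213). The tRNA gene mt-Ty, for tyrosine, held 7.10, 5.63 and 3.66 CPM against 0, 0 and 0.246, or 86 and 1 counts, a ratio of 70.9 (95% exact interval 12.4 to 2832). The 22 mitochondrial tRNAs summed to 12.1 to 23.0 CPM against 1.1 to 1.7 CPM. The ribosomal RNA mt-Rnr2 ranged from 2521 to 5717 CPM in antisense and from 4140 to 6519 CPM in sense and did not pass (0.47, SE 0.227).

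Promoters of the genes that moved were compared by counting CG pairs, the letters C then G on either strand, in the 250 bases before the start. RefSeq promoters were matched by symbol for 13332 tested genes, and 92.1% of all 32851 promoters in the table held at least 1 CG, with a median of 6. Among coding genes without overlap the median was 4 (quartiles 1 and 13) for those higher in antisense, 13 (3 and 20) for those higher in sense and 14 (7 and 21) for those not passing. At 1 to 10 CPM the medians were 4 for genes higher in antisense and 10 for those not passing. Over all CPM, without odorant and vomeronasal receptors, whose median was 1, the medians were 7 and 15. Genes higher in sense by over 2-fold had a median of 2, or 8 without the receptors. The letters TATAAA, on either strand, were present in 14.9% of promoters of antisense-higher genes, 10.5% of sense-higher genes and 9.14% of those not passing, against 12.4% of all promoters. Odorant and vomeronasal receptors had these letters in 36.2% of promoters. Without the receptors the shares were 9.77% for antisense-higher genes and 7.35% for those not passing. Of the promoters printed above, Ero1a held 41 CG pairs over the 250 bases, Syn1 27, Slc18a2 9, Fcgr2b 5, Cbln3 2 and Gm21885 1. These counts describe the genes and were not tested.

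Distance to an expressed neighbour was counted in the same coding genes without overlap. At 1 to 10 CPM, 144 of 302 genes higher in antisense (47.7%) lay within 5000 bases of a gene with at least 10 CPM in sense, against 616 of 1971 not passing (31.3%) and 9 of 42 higher in sense (21.4%). At 10 to 30 CPM the shares were 44.2%, 39.3% and 28.2%, and at 30 to 100 CPM they were 33.6%, 39.6% and 32.5%. The comparison is a description without a test.

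The authors' deposited table, made from the same libraries, calls 609 genes higher in sense and 3852 higher in antisense at an adjusted p of 0.05. Of those 489 (80.3%) and 2919 (75.8%) were also called here, which is 69.6% and 82.6% of the calls here. Of the authors' calls 592 and 2920 were among the genes tested here, and no gene was called in opposite directions.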

How the data were processed

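Total RNA from 3 antisense and 3 sense libraries was analysed. Per the submitters' processing notes Salmon, DESeq and the build GRCm38 were used, with no versions; the strand setting was not given in the sources used here. The authors deposited estimated counts per gene symbol, rounded here to whole numbers, and a comparison table whose columns, per the file headers, are a mean normalised signal (baseMean), a log2 fold change and its error, a test score (stat), and the p-value before and after adjustment. That table supplied gene types and was otherwise read side by side.

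Gas5 was set apart before library totals and TMM factors were computed. Genes were kept by filterByExpr at a minimum count of 10 and tested with edgeR 4.0.16 (quasi-likelihood F test, two-sided, R 4.3.3), sense minus antisense and no covariate; p-values were adjusted over all tested genes by Benjamini-Hochberg. The standard error is the log2 fold change over the square root of F. Floors and exact intervals at 95% account for counting error alone: without molecular identifiers, reads are not separate molecules. DESeq2 1.42.0, other scalings, filters, a replicate block and leaving out each library were alternatives.

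The text names Gas5; per direction the 10 genes with most counts past 2-fold with groups that do not overlap; per direction the 8 coding genes without overlap with the largest change at 5 CPM or more; and up to 3 members per list by smallest p; some results under this rule are not reported here. The 28 lists by member and 34 by name pattern, and the members, were chosen with earlier results of these data known. Name patterns also caught Grin1os, Plxna4os1, Plxna4os2, Atp5k-ps3, Tradd and Tubgcp4. RefSeq positions (GRCm38.p6, no strand) matched 37788 of 49489 symbols, and 37934 with synonyms.

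On counts simulated from these means and sizes for 19660 genes, the fit found 50.7% of genes given a 1.5-fold change (34 of 67), 86.6% at 2-fold (58 of 67) and all 66 at 4-fold, and it called 18 of 19351 unchanged genes. Changed genes were drawn from those at 5 CPM or more, so recovery at fewer counts was not measured. All genes had the same dispersion, and few genes were changed, in both directions. In the data 83.4% of calls were higher in antisense.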

Additional observations from a re-analysis of the deposited data

How the results depend on the processing

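How the library totals are set decides the number and direction of small changes. With totals that include Gas5 and no TMM factor 63 genes were higher in sense and 12581 in antisense, with a median log2 fold change of -0.69. The median was 0.01 with Gas5 kept in the totals and TMM over all kept genes, 0.01 with totals without Gas5 and no TMM, 0.02 with RLE size factors, -0.04 with TMM from coding genes, 0.02 with DESeq2, -0.11 with no filter and 0.01 at a minimum count of 50, and -0.02 to 0.00 when each library was left out. At a minimum count of 50 the calls were 325 in sense and 1691 in antisense, where fewer genes were tested. DESeq2 called 638 and 3162. Leaving out each library gave 390 to 1022 genes higher in sense, the highest without sense replicate 2, and 3138 to 3921 higher in antisense. Gas5 stayed higher in sense in every setting run, with a log2 fold change of 1.97 to 3.07.

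Of 146 named genes that passed besides Gas5, 100 kept their call whichever library was left out. In the setting of totals with Gas5, 32 genes picked by the naming rule turned, among them Syn1 (-0.07), Camk2a (-0.23), Reln (-0.20), Atp1b2 (-0.25), Aldh1l1 (-0.26), Fn1 (-0.39), Snhg20 (-0.16), Dcp2 (-0.40), Drosha (-0.33), Xpo5 (-0.35), Mt1 (-0.31), Mt2 (-0.26), Mtor (-0.42), Apaf1 (-0.32), Tug1 (-0.34), Rmrp (-0.20), Bsn (-0.02), Ppfia3 (-0.20), Dlgap3 (-0.10), Map1a (-0.07), Map1b (-0.14), Kif5a (-0.14), Jund (-0.14), Atp5md (-0.29), Psmd4 (-0.32), Kif1a (-0.27), Scn8a (-0.35), Pcdhgc3 (-0.12), Pcdha11 (-0.15), Plxnd1 (-0.14) and Scarna6 (-0.23). No named gene turned in the other settings run.

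The labels give the groups the same replicate numbers. Deviations of same-numbered libraries from their group mean correlated at 0.059, -0.066 and -0.0076, and those of different-numbered libraries at -0.138 to 0.146. With 3 libraries per group this cannot tell whether same-numbered libraries share a culture. With the replicate number as a block 558 genes were higher in sense and 3305 in antisense. Depth limits the genes with few counts, as a gene at 0 in sense has only a bound. The simulation changed only genes at 5 CPM or more, where 1.5-fold changes were recovered in 50.7% of cases.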

Other observations

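Over all tested genes 17.6% were higher in antisense and 3.51% in sense. Of 346 zinc finger protein genes 14 were higher in antisense (4.05%) and 4 in sense (1.16%). Among 38 collagen, 32 homeobox and 17 serpin genes 3 (7.89%), 4 (12.5%) and 3 (17.6%) were higher in antisense and none in sense. Of 52 clustered histone genes 1 passed each way. Of 21 immediate early genes Jund (0.55) and the nuclear receptor gene Nr4a1 (0.84) were higher in sense; both lost their call when single libraries were left out (adjusted p up to 0.201 and 0.127, edgeR). Epha1, an ephrin receptor gene that overlaps Zyx, had 117 antisense and 2 sense counts (ratio 48.2, 95% exact interval 13.1 to 403) and was the only call among 19 ephrin and Eph receptor genes.

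The share of genes higher in sense by chromosome ran from 0.882% of 567 tested genes on chromosome 16 to 5.17% of 638 on chromosome 14 among the autosomes and X. These values were not tested.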
